A study of Homo sapiens with 6 samples.

Results

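The genes for the proteins of the cytosolic ribosome were examined in cells treated with MFAP5 (microfibrillar associated protein 5), a glycoprotein that cells secrete into extracellular microfibrils. The cells were OVCA432, an established line of human ovarian cancer of the high grade serous type. A gene was taken where a probe set of the array carried its symbol alone and that symbol was RPL or RPS with a number, RPLP0, RPLP1, RPLP2 or RPSA; kinases of the RPS6K type, RPS4Y genes and pseudogenes were left out. These symbols gave 62 genes of 19775 with a probe set of their own, and each gene was read from its brightest such probe set by mean log2 signal over all 6 arrays. Of the 62, 60 encode proteins, and the symbol rule also took 2 non-coding RNAs, RPL26L1-AS1 and RPL34-DT. RPLP0, RPSA, RPS27A, RPL10, RPL15 and RPL26 had no probe set listed under their symbol alone and were not analysed as single genes. The MFAP5 group held 3 arrays of cells given 200 ng/mL of recombinant human MFAP5 for 48 h, and the control group 3 arrays of cells given the solvent for 48 h. All 6 cultures had been without serum for 24 h beforehand and remained so, and 1 cell line at 1 dose and 1 time stands for the response. The samples were prepared independently, but whether they came from separate passages is not stated, so p-values measure the spread between these samples.

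A cytosolic ribosome joins a small subunit, which reads the mRNA, to a large subunit, which forms the peptide bond, and each is built from ribosomal RNA and one copy of most ribosomal proteins. The mRNAs of these proteins are among the most abundant of a growing cell. Most begin with a C and a run of pyrimidines, the 5′ terminal oligopyrimidine (TOP) motif, through which mTORC1 and the RNA-binding protein LARP1 control their translation and stability together. Several ribosomal proteins also have a paralogue, encoded elsewhere in the genome, that is expressed at other levels or in other tissues.

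Each array was scaled by MAS5, with a trimmed mean of 500.07 on all 6, so a change in the total mRNA of a cell cannot be seen, and in bulk RNA fewer cells with a transcript and less of it per cell cannot be told apart. On each array 27209 to 36073 probe sets were brighter than the brightest Bacillus control, and the number of arrays limits the precision. The fit called 25.2% of the 27307 probe sets past the brightness filter (limma, adjusted p below 0.05). Of the epithelial and serous markers, 11 of 11 passed the filter, and 3 of 9 markers of fibroblasts, leukocytes and endothelium did. COL3A1, DCN, LUM, PTPRC, CD3E and PECAM1 stayed below it. COL1A1 had 177 ± 17.7 in MFAP5 cells and 170 ± 15.5 in control cells, VWF 84.0 ± 18.6 and 45.0 ± 30.5, and CDH5 66.6 ± 19.3 and 51.3 ± 15.1 (SD, n = 3 each), none called (limma; none with an unadjusted p below 0.05). VWF was called higher (adjusted p = 0.0433) without control replicate 3, and the part of such cells in the results was not tested. The ratio of 3′ to 5′ signal of the control transcripts differed between MFAP5 and control arrays by 0.03 (log2) for GAPDH and -0.01 for ACTB (exact permutation p = 0.5 and 0.8). Control replicate 3 stood apart in its spiked hybridisation controls, whose mean log2 signal was 11.87, against 12.09, 12.09 and 12.21 on the MFAP5 arrays and 12.24 and 12.11 on the other control arrays.

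The mRNAs of the cytosolic ribosomal proteins had a median log2 change of 0.17 on the MFAP5 arrays, which was 0.07 without control replicate 3 and 0.02 with quantile normalization, and few single genes passed the test. Of the 58 genes past the filter, 1 was called higher (RPL31) and 3 lower (RPS27L, RPL27A and RPL26L1), and 54 were not called. These are 1.72% and 5.17% of the genes, beside 14.6% called higher and 15.3% called lower among all 12216 genes tested. The fitted log2 change was above 0 for 53 of the 58, with a middle range of 0.13 to 0.21 around that median, beside a median of -0.01 over all genes. Unadjusted p was below 0.05 for 18 of the 58, against 42.4% of all genes. The MFAP5 and control signals did not overlap for 33 of the 58, against 45.9% of all genes.

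Both subunits had medians of that size, and the paralogues did not. The large subunit proteins, 32 genes, had a median log2 change of 0.17, with 1 called higher and 1 lower. The small subunit proteins, 20 genes, had a median of 0.18, a range of 0.00 to 0.23, and none called in the fit of limma, while 6 had an unadjusted p below 0.05, beside 42.4% of all genes. The 6 tested paralogues had a median of 0.01, with 2 called lower. Without control replicate 3 the medians were 0.06, 0.08 and 0.00 for the large subunit, the small subunit and the paralogues, and with quantile normalization 0.02, 0.03 and -0.05. The remaining 4 genes lay below the filter. RPL10L, a paralogue known from testis, had signals of 38.3, 81.0 and 33.4 on the MFAP5 arrays and 61.7, 15.4 and 48.9 on the control arrays. RPL3L, a paralogue of skeletal and heart muscle, stayed at or below 27.8 on MFAP5 and 20.9 on control arrays, and the 2 non-coding RNAs at or below 36.8 on MFAP5 and 35.9 on control arrays.

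**Figure D1:**
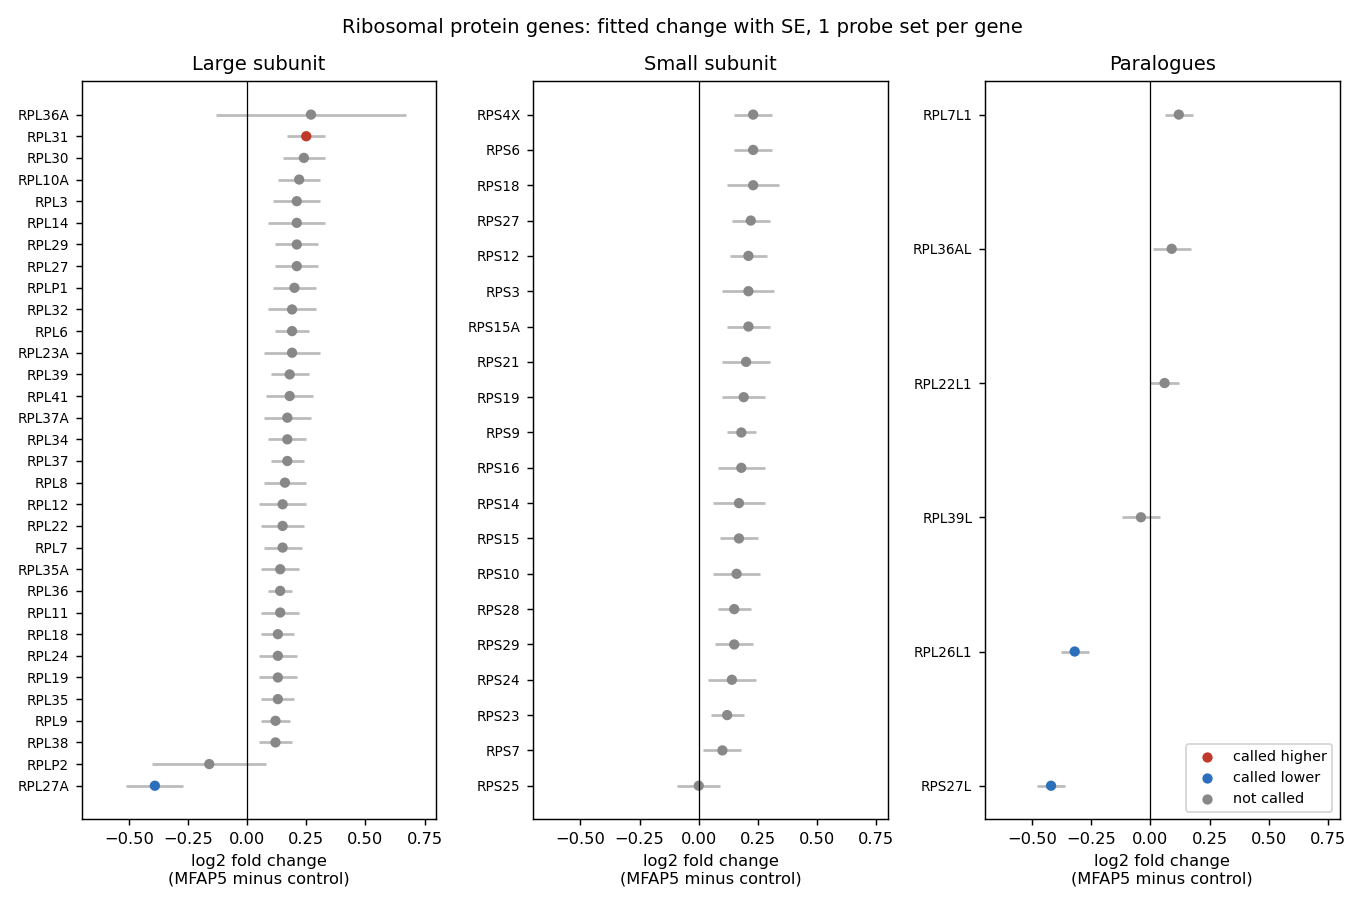
Fitted log2 fold change (MFAP5 minus control, x axis) of the 58 ribosomal protein genes past the filter, with bars of 1 SE, for large subunit proteins, small subunit proteins and paralogues. Most points sit near 0.17 and are not called, RPL31 is called higher, and RPL27A, RPL26L1 and RPS27L are called lower.

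The negative values belonged to the dimmer genes. The 52 genes with a mean signal of at least 10000 had log2 changes from 0.00 (RPS25) to 0.25 (RPL31), with a median of 0.17 and SEs of 0.05 to 0.12. The other 6 genes were RPS27L, RPL26L1, RPL39L, RPL27A, RPLP2 and RPL36A, and every negative value was among them. Single signals of the bright genes ran from 10429 to 50863, while the brightest probe set of an array had 38414 to 52912, and 32 of the 50 brightest genes were ribosomal protein genes. Whether such signals remain proportional to RNA was not tested. Among the brightest 5% of genes tested, 611 in all, the median change was 0.04 (0.00 without control replicate 3), with 15.4% called higher and 14.4% lower. Only 559 of the 611 lay outside the ribosomal protein genes, so this list partly holds the members themselves.

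The shift was not even across the arrays, and 1 control array lay below the other 5. The median of the 58 genes, each taken against its own mean over the 6 arrays (log2), was 0.12, 0.06 and 0.08 on the MFAP5 arrays and 0.01, 0.02 and -0.28 on the control arrays. Control replicate 3 held the lowest signal for 50 of the 58 genes. Set against the mean of control replicates 1 and 2, it was lower by a median log2 difference of -0.29 for these genes, -0.12 for the brightest 5% of genes, -0.05 for mitochondrial ribosomal proteins and -0.02 for all genes. The share of an array's summed signal held by the 58 genes was 4.03%, 3.90% and 3.94% on the MFAP5 arrays and 3.77%, 3.82% and 3.24% on the control arrays. The MFAP5 shares lay above both remaining control shares too. Without control replicate 3 the median change was 0.07 instead of 0.17, and 5 genes were called higher (RPL31, RPL36, RPS27, RPS4X and RPS6) and the same 3 lower. In that fit 14.4% of all genes were called higher and 15.1% lower. Of the 52 bright genes, 30 had all 3 MFAP5 signals above control replicates 1 and 2, which held for 27.3% of all genes and 31.8% of the brightest 5%.

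The size of the shift also differed between scalings. The median of the ribosomal protein genes was 0.02 with quantile normalization, where that of all genes was -0.04. It was 0.03 with arrays centred on their medians, which moved all genes to -0.15, and 0.11 with arrays centred on the hybridisation controls, where all genes had -0.06. Both centrings subtract the same value from every gene of an array, so they cannot change the gap between these genes and all genes. Quantile normalization can, and there the gap was narrower, with 0.02 beside -0.04, against 0.17 beside -0.01 as deposited. The part of control replicate 3, of its hybridisation controls and of brightness in the shift was not tested beyond these values.

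**Figure D2:**
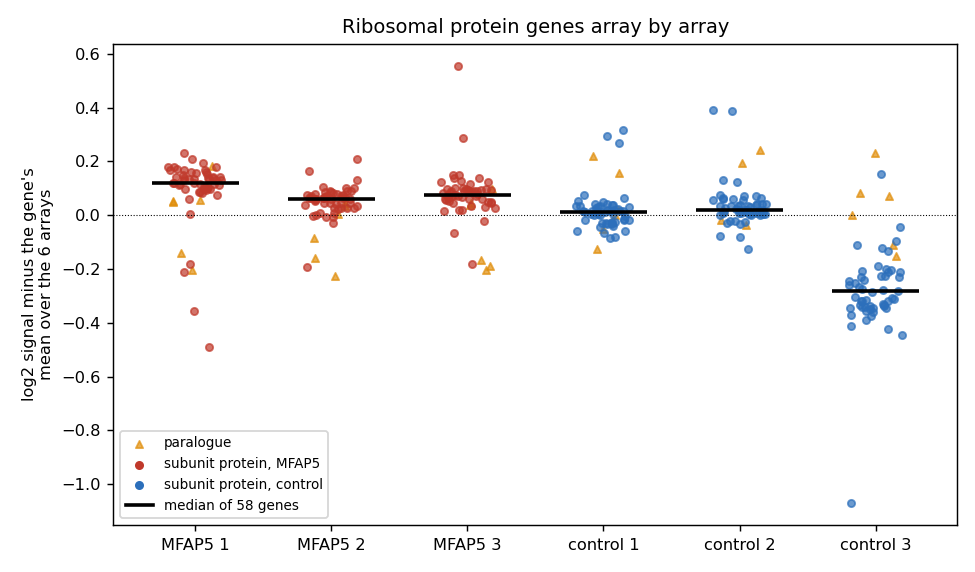
Log2 signal of each ribosomal protein gene minus its mean over the 6 arrays (y axis), by array (x axis); circles are subunit proteins, triangles paralogues, and the black line is the median of the 58 genes. The medians are 0.12, 0.06 and 0.08 on the MFAP5 arrays and 0.01, 0.02 and -0.28 on the control arrays, so the third control array lies apart.

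RPL31, a protein of the large subunit near the exit of the peptide tunnel, was the gene called higher. Its signals were 45798, 42194 and 44471 on the MFAP5 arrays and 39583, 39507 and 32457 on the control arrays. All MFAP5 signals lay above all control signals, and the third control was the lowest. The log2 change was 0.25 ± 0.08 (SE, n = 3 each; limma adjusted p = 0.0479). The call was lost in 11 of 16 alternatives, among them the omission of any 1 array other than control replicate 3, and kept without control replicate 3 (0.16, adjusted p = 0.0285). A dimmer probe set of RPL31 showed a far larger difference, with 907, 1150 and 1337 in MFAP5 cells against 563, 549 and 500 in control cells (log2 change 1.06 ± 0.13 SE, limma adjusted p = 0.000387). The other dim RPL31 probe set had a log2 change of -0.08 (limma adjusted p = 0.723). The gene's probe sets therefore disagree in size, and the last value, with an SE of 0.15, gives no direction.

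The brightest genes show the common pattern without passing the test. RPS19, a small subunit protein whose mutation causes Diamond-Blackfan anaemia, had 50863, 48713 and 49180 in MFAP5 cells against 46742, 47524 and 36587 in control cells. Its log2 change was 0.19 ± 0.09 (SE; limma adjusted p = 0.162). RPS16 had 46267, 44526 and 43554 in MFAP5 cells against 42238, 43791 and 33358 in control cells (0.18 ± 0.10, limma adjusted p = 0.198). In both, the third control array lay far below the other 5. Between the remaining arrays the gap was small for RPS19, and the groups overlapped for RPS16. RPL35A, of the large subunit, had 48222, 47663 and 47957 in MFAP5 cells against 46942, 45998 and 38414 in control cells (0.14 ± 0.08, limma adjusted p = 0.236). RPL3, which helps shape the peptidyl transferase centre, had a log2 change of 0.21 (limma adjusted p = 0.165), and RPS14, which lies on the platform of the small subunit, 0.17 (adjusted p = 0.277). Without control replicate 3 the log2 changes were 0.07 for RPS19, 0.06 for RPS16, 0.05 for RPL35A, 0.08 for RPL3 and 0.03 for RPS14.

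The stalk proteins, which recruit elongation factors to the large subunit, could be read in part. RPLP1 had signals of 37316, 35758 and 36426 with MFAP5 against 34893, 34040 and 26978 in control, a log2 change of 0.20 ± 0.09 (SE; limma adjusted p = 0.142), and 0.08 without control replicate 3. The groups did not overlap. RPLP2 was represented by a dim probe set, with 82.9, 114 and 142 on the MFAP5 arrays and 145, 119 and 107 on the control arrays (-0.16 ± 0.24, limma adjusted p = 0.682). RPL36A, a large subunit protein near the exit site of the tRNA, was likewise dim, with 59.6, 88.2 and 112 on the MFAP5 arrays and 91.7, 100 and 36.3 on the control arrays (0.27 ± 0.40, adjusted p = 0.664). The groups overlap for both, and both values are too uncertain to give a direction.

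RPL27A, a large subunit protein, fell by its only probe set listed under the symbol alone, which was dim. That probe set lay far below the signals of the bright genes, 10429 to 50863, and which transcripts it measures was not tested. The signals were 664, 672 and 678 in MFAP5 cells against 943, 1004 and 718 in control cells, and the log2 change was -0.39 ± 0.12 (SE; limma adjusted p = 0.0425). The third control signal was close to the MFAP5 signals, and without it the change was -0.54 (adjusted p = 0.00358). The call was lost in 8 of 15 alternatives, again including the omission of any 1 array other than control replicate 3.

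The smallest adjusted p-values among the 58 genes belonged to a pair of paralogues. RPS27L, the paralogue of the small subunit protein RPS27 and a known target of p53 in human cells, was 1.34-fold lower with MFAP5. Its signals were 6404, 6303 and 6411 on the MFAP5 arrays and 8232, 8727 and 8662 on the control arrays, with a gap between the groups far wider than the spread within either. The log2 change was -0.42 ± 0.06 (SE, n = 3 each; limma adjusted p = 0.000558), and it was called in 16 of 16 alternatives, with adjusted p of at most 0.0143. Its other probe sets, both dim, had log2 changes of -0.96 (limma adjusted p = 0.013) and -0.48 (adjusted p = 0.0796). RPS27 itself had 36543, 35697 and 36664 with MFAP5 against 33042, 33176 and 27663 in control (0.22 ± 0.08, limma adjusted p = 0.0604). RPS27 was called higher, by 0.13 (adjusted p = 0.0325), without control replicate 3, but in only 2 of 15 alternatives. Its change was 0.06 with quantile normalization (limma adjusted p = 0.235) and 0.08 with arrays centred on their medians (adjusted p = 0.382). The paralogue and its namesake thus had changes of opposite sign, of which that of RPS27 was small under these scalings.

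RPL26L1, the paralogue of the large subunit protein RPL26, was 1.25-fold lower with MFAP5. Its signals were 6692, 6606 and 6478 in MFAP5 cells against 8602, 8442 and 7741 in control cells, without overlap. The log2 change was -0.32 ± 0.06 (SE; limma adjusted p = 0.0041), called in 16 of 16 alternatives with adjusted p of at most 0.0397. RPL26 was not analysed here, so the pair could not be compared.

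The remaining tested paralogues were not called. RPL22L1, whose product can replace RPL22 in the large subunit, was bright, with 26866, 26061 and 26688 in MFAP5 cells against 26028, 26289 and 24049 in control cells (0.06 ± 0.06, limma adjusted p = 0.491). RPL7L1, a relative of RPL7, had a log2 change of 0.12 (adjusted p = 0.177), and RPL36AL, the retroposed relative of RPL36A, 0.09 (adjusted p = 0.401). RPL39L, known from testis and found in some tumours, had 1466, 1457 and 1258 in MFAP5 cells against 1430, 1376 and 1495 in control cells (-0.04 ± 0.08, limma adjusted p = 0.747). These groups overlap for RPL22L1, RPL36AL and RPL39L, but not for RPL7L1.

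The log2 signal of each paralogue minus that of the protein it is named after was compared between the groups for the 5 pairs with both genes tested. For RPS27L against RPS27 the MFAP5 minus control difference was -0.64, and -0.54 without control replicate 3. The arrays did not overlap, and the exact permutation p was 0.1, the smallest that 3 against 3 arrays can give (0.25 adjusted over the 5 pairs). For RPL39L against RPL39 it was -0.23 (exact permutation p = 0.1, adjusted 0.25) and -0.11 without control replicate 3. RPL39 had 44684, 42830 and 42490 in MFAP5 cells against 41087, 39817 and 33937 in control cells. The other pairs had differences of -0.18 (RPL36AL), -0.09 (RPL22L1) and -0.03 (RPL7L1), with exact permutation p of 0.7, 0.4 and 0.8. Without control replicate 3 they were 0.31, -0.03 and 0.03, so those of RPL36AL and RPL7L1 turned. This design cannot reach 0.05, so no pair could pass.

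**Figure D3:**
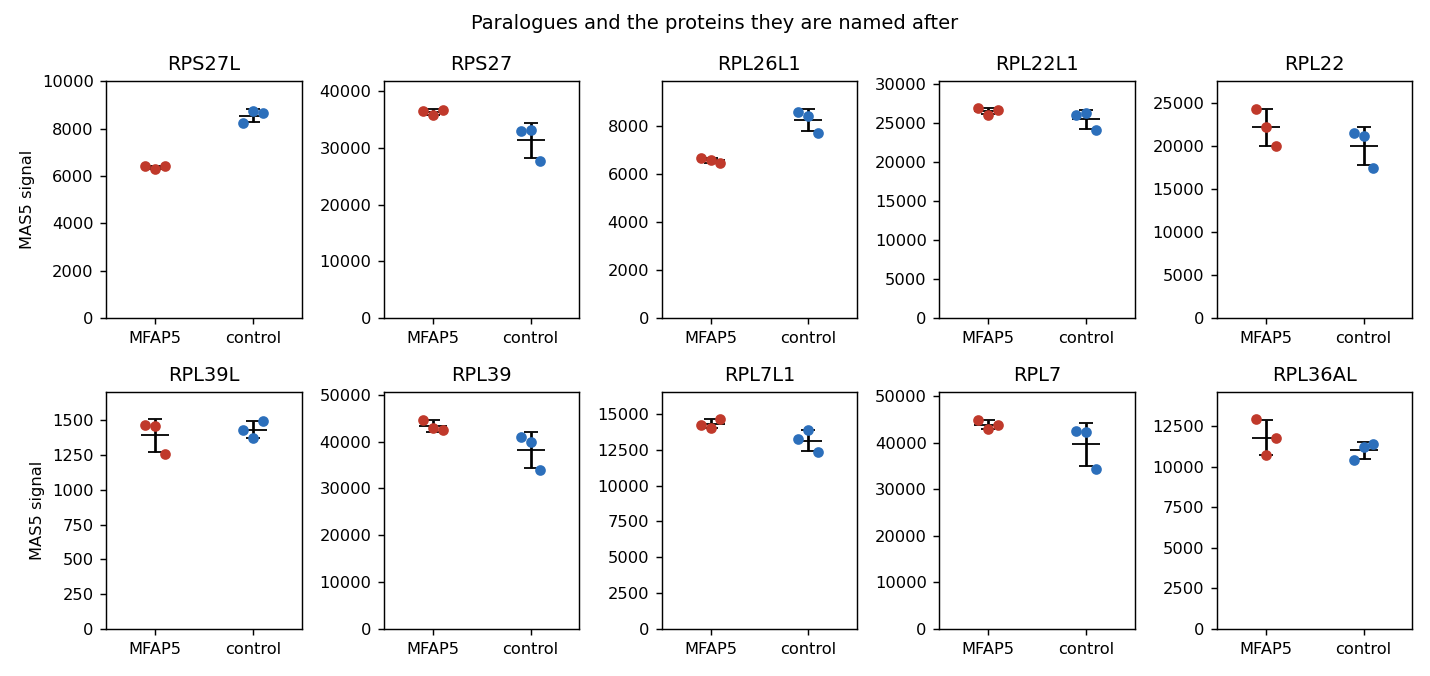
MAS5 signal (y axis, from 0) of the 6 tested paralogues and of RPS27, RPL22, RPL39 and RPL7, with MFAP5 arrays in red, control arrays in blue, horizontal bars at the mean and error bars of 1 SD (n = 3). The dim RPL36A is not drawn, and the groups of RPS27L and RPL26L1 lie clearly apart, with the MFAP5 signals lower.

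The annotated transcription starts of these genes are shown because the called paralogues differ there from most subunit proteins. The first 20 bases precede the start and are in lower case, and the 10 capitals are the first transcribed bases (RefSeq, GRCh38.p14; 5′ to 3′ on the gene's strand). The called genes and RPS27 come first, and then RPL22L1, RPL36AL and RPL7L1, paralogues that were not called.
RPS27L, chr15:63157468-63157497, minus strand: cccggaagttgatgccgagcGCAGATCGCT
RPS27, chr1:153990742-153990771, plus strand: gcaggatttccgctttcgctCCTTTCCGGC
RPL26L1, chr5:172958709-172958738, plus strand: caggcagtcttccaggggtcGGCGAACGAA
RPL26L1, a second start, chr5:172958860-172958889, plus strand: agaggggcggggcggcggccACAAACCCGC
RPL31, chr2:101002269-101002298, plus strand: ctcccacaatccttcgcgctCTTCCTTTCC
RPL27A, chr11:8682772-8682801, plus strand: gagacttggcgaaggccttcCTTTTTCGTC
RPL22L1, chr3:170870186-170870215, minus strand: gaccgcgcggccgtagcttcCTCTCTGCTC
RPL36AL, chr14:49620617-49620646, minus strand: tccgcctgtttcttccctttCCTGTTAGGC
RPL7L1, chr6:42879596-42879625, plus strand: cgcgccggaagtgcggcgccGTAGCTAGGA

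RPS27, RPL31, RPL27A and RPL22L1 start with a C and an unbroken run of pyrimidines, whereas RPS27L, RPL26L1 and RPL7L1 start with a purine. Start sequences were found for 51 of the 58 tested genes, and a TOP motif was read as a C at the first base followed by at least 4 pyrimidines. By that reading 35 of the 51 (68.6%) had the motif, against 7.16% of 9985 tested genes and 5.14% of all 27305 genes with a start sequence. It was present in 34 of 46 subunit proteins and in 1 of 5 paralogues, RPL22L1. The runs were 5 to 19 bases long, with a median of 8. The longest belonged to RPL39, which starts with CCCTCCTCTT and whose run goes on past those bases.

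An annotated start can be off by a few bases, so a tract that begins within 10 bases on either side was also counted. This held for 44 of the 51 genes (86.3%), against 41.9% of tested genes. The 7 without one were RPL26L1, RPL27, RPL6, RPL7L1, RPS27L, RPS29 and RPS4X. Of these, RPS27L and RPL26L1 were called lower, and the other 5 had log2 changes above 0 and were not called.

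Genes with and without the motif had similar medians. The median log2 change was 0.17 over the 35 genes with a TOP motif and 0.15 over the 16 without. With the motif, 1 gene was called higher (RPL31) and 1 lower (RPL27A), and without it 2 were called lower (RPS27L and RPL26L1). Outside the ribosomal proteins, 680 tested genes had the same motif at their annotated start. Of these 15.1% were called higher and 17.8% lower, with a median log2 change of -0.02, close to the background of all genes.

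Other letters in the promoters were counted over the 250 bases before and 50 after the start, on both strands. CCGGAAGT, the core bound by GABPA and other ETS factors, was in 11 of the 51 (21.6%), against 4.95% of all promoters of that length. CACGTG, the E-box bound by MYC and MAX, was in 4 (7.84%), against 8.77%. Both background shares are over all genes with a start sequence, tested or not, whereas the 51 were all tested. These are matches of letters and say nothing of binding.

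Probe sets of the same gene did not always move together. Of 123 probe sets listed under one of these symbols alone, 109 passed the filter, 8 were called higher and 6 lower, beside 13.5% higher and 11.8% lower of all probe sets, and the median log2 change was 0.15. Besides the dim probe sets of RPL31 and RPS27L described above, some were called where the gene's bright one was not. RPS23, of the decoding centre, had 820, 828 and 774 in MFAP5 cells against 527, 480 and 483 in control cells by its dim probe set (log2 change 0.70, limma adjusted p = 0.000503), and 0.12 by its bright one. RPS29 rose by 0.74 (adjusted p = 0.0041) by a dim probe set, with 285, 281 and 299 in MFAP5 cells against 157, 179 and 184 in control cells, and had 0.15 by its bright one. A dim RPL35A probe set rose by 0.50 (adjusted p = 0.00721). RPL22 rose by 0.34 and 0.27 by its 2 dimmer probe sets and had 0.15 by its brightest. RPL29 was called higher by a second probe set that was itself bright (0.27, limma adjusted p = 0.0469), and had 0.21 by its brightest.

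Other dimmer probe sets went the opposite way. RPS24, a small subunit protein with several splice forms, fell by 0.63 on the log2 scale by a probe set with 1094, 1236 and 1213 in MFAP5 cells against 1569, 1890 and 2037 in control cells (limma adjusted p = 0.00177). Its bright probe set had a log2 change of 0.14 (adjusted p = 0.309). RPS21 fell by 0.43 by a probe set with 4297, 4375 and 4647 in MFAP5 cells against 6200, 6117 and 5649 in control cells (limma adjusted p = 0.00107), against 0.20 by its bright one. RPS23, RPS29, RPL29 and RPS21 were named here after their values were seen. Which transcripts these dimmer probe sets measure was not tested.

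Bright probe sets may also read more than 1 gene. Of the 58 that stand for a gene, 16 belong to the _x_at type, whose probes may match unrelated sequences, and 29 to the _s_at type, whose probes may match several transcripts, and ribosomal protein genes have many processed pseudogenes. A further 65 probe sets listed a ribosomal protein gene together with other symbols, 62 of them past the filter. Of these 10 were called higher and none lower by limma, beside 13.5% and 11.8% of all probe sets, 54 had a log2 change above 0, and the median was 0.18. Without control replicate 3, 13 were called higher, beside 13% of all probe sets, and the median was 0.08.

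**Figure D4:**
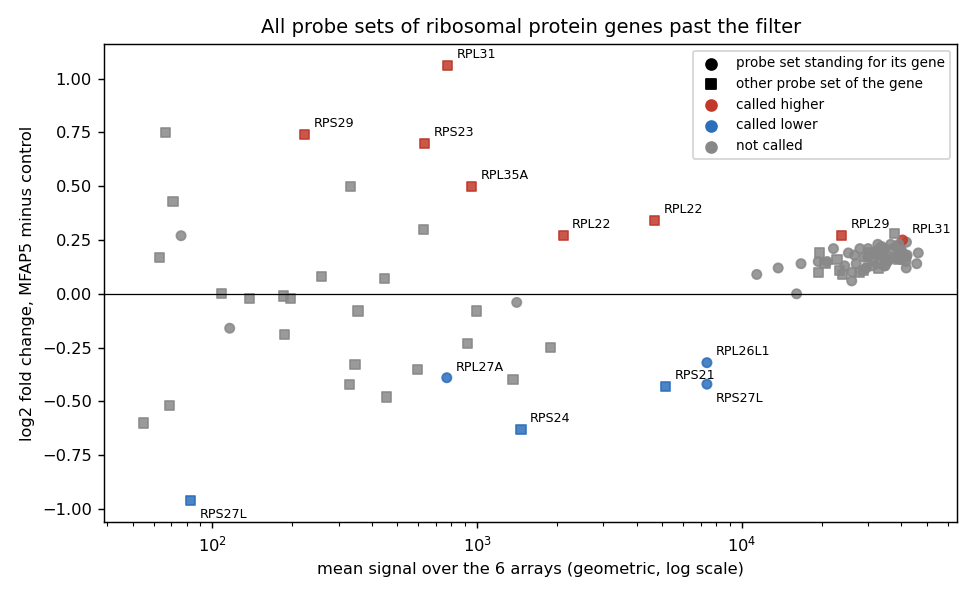
Log2 fold change (MFAP5 minus control, y axis) against mean signal over the 6 arrays (x axis, log scale) for the 109 probe sets of ribosomal protein genes past the filter; circles stand for their gene, squares are further probe sets, red is called higher and blue lower. The bright probe sets form a tight cloud near 0.15, and most of the called ones are dimmer.

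Genes of the same process, taken from lists, mostly did not share the small upward shift. The proteins of the mitochondrial ribosome, which make the few proteins encoded by mitochondrial DNA, lay lower. Of 76 symbols tested, among them the antisense RNA MRPL20-AS1, which was not called, 47 fell (61.8%, against 15.3% of all genes), 2 rose and 27 were not called, with a median log2 change of -0.31. MRPL24 had 2912, 2958 and 3150 in MFAP5 cells against 4727, 4321 and 4423 in control cells (1.49-fold lower, limma adjusted p = 0.000204). MRPL12 was 1.48-fold lower and MRPS18C 1.46-fold lower. The exceptions were MRPS6, 1.48-fold higher (adjusted p = 0.000137), and MRPL33, 1.14-fold higher (adjusted p = 0.0261). MRPL33 was named after its value was seen. The number lower ran from 25 with arrays centred on the hybridisation controls to 69 with arrays centred on their medians, and was 56 without control replicate 3. Of all 12216 genes, those fits called 1092, 3438 and 1841 lower, against 1869 in the main fit. The median of the mitochondrial genes stayed between -0.29 and -0.45 under the scalings tried.

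Chaperones of ribosomal proteins and late assembly factors also fell in the majority. Of 22 tested, 12 fell (54.5%, against 15.3% of all genes), 1 rose (4.55%, against 14.6%) and 9 were not called, with a median log2 change of -0.30. RIOK2, an ATPase that releases factors from the nascent small subunit, had 1175, 1230 and 1200 in MFAP5 cells against 1993, 1950 and 2200 in control cells (1.70-fold lower, limma adjusted p = 7.75e-05). TSR1, a factor of small subunit maturation, was 1.53-fold lower, GRWD1, the chaperone of RPL3, 1.48-fold lower, and PDCD2, the chaperone of RPS2, 1.44-fold lower. RIOK3, a kinase of the same family as RIOK2, rose 1.16-fold (adjusted p = 0.0232) and was named after its value was seen. The number lower was 18 with arrays centred on their medians and 7 with arrays centred on the hybridisation controls. Those fits called 3438 and 1092 of all 12216 genes lower.

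Initiation factors that deliver the initiator tRNA were lower in part. Of 15 genes for eIF1, eIF2, eIF2B and related factors, 6 fell (40%, against 15.3% of all genes) and none rose, with a median of -0.20. EIF2B3, a subunit of the exchange factor for eIF2, had 1452, 1078 and 1182 in MFAP5 cells against 1998, 1978 and 1796 in control cells (1.57-fold lower, limma adjusted p = 0.00195). EIF2B5 was 1.44-fold lower, EIF2B4 1.40-fold lower and EIF2S1, the subunit phosphorylated under stress, 1.33-fold lower. Of 12 eIF3 subunits 3 fell (EIF3G, EIF3J and EIF3M), a share of 25%, and of 11 genes for the cap-binding eIF4 group 1 fell (EIF4E2, log2 change -0.24), a share of 9.09%. No gene of these groups was called higher (limma), beside 14.6% of all genes. With arrays centred on their medians 7, 6 and 2 genes of the 3 groups were lower, and with arrays centred on the hybridisation controls 5, 2 and 0. Of all 12216 genes 3438 and 1092 were lower in those fits.

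Of 11 elongation and termination genes, 4 fell (36.4%, against 15.3% of all genes) and none rose by limma, with a median log2 change of -0.19. EIF6, which keeps the subunits apart, was 1.33-fold lower, EIF5A fell by 0.26 on the log2 scale, and GSPT1 and EEF2K were each 1.19-fold lower. The number lower was 6 with arrays centred on their medians and 1 with arrays centred on the hybridisation controls. Those fits called 3438 and 1092 of all 12216 genes lower. EEF1A1 and EEF2, whose mRNAs are known TOP mRNAs, had log2 changes of 0.17 and 0.14 and were not called (limma adjusted p = 0.0867 and 0.111). Over the 15 known TOP mRNAs tested from outside the symbol rule, these 2 included, the median was 0.09 (0.02 without control replicate 3), with TPT1 higher (0.30, adjusted p = 0.00941) and HNRNPA1 lower (-0.32, adjusted p = 0.005). None of these TOP mRNAs was called higher (limma) with arrays centred on their medians or on the hybridisation controls, where 3 and 1 were lower. Of all 12216 genes 1118 and 915 were called higher there. FAU, a ribosomal protein outside the symbol pattern, had a log2 change of 0.10 (adjusted p = 0.446).

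Calls in a list drawn up around mTORC1 and the S6 kinases, which also held RPS6KA2, RPS6KA3 and MYC, went in both directions. The shares were near those of all genes. Of 24 genes of the mTORC1 and S6 kinase list, 4 rose (16.7%, against 14.6% of all genes), 3 fell (12.5%, against 15.3%) and 17 were not called. LARP1 had a signal of 11452 ± 185 in MFAP5 cells and 11384 ± 228 in control cells (SD, n = 3 each; limma adjusted p = 0.929), and MTOR a log2 change of -0.27 (adjusted p = 0.309). RPS6KB1, the S6 kinase that mTORC1 activates, rose 1.22-fold (adjusted p = 0.0356), RRAGD, a Rag GTPase, 1.93-fold, RPS6KA2 1.55-fold and RPS6KA3 2.34-fold. SESN3, a sestrin, was 3.32-fold lower (adjusted p = 0.00027), and MYC, a transcription factor that drives ribosome production, 1.47-fold lower, with 10542 ± 783 in MFAP5 cells and 15665 ± 2846 in control cells (adjusted p = 0.0069). DDIT4, an inhibitor of mTORC1, was 1.41-fold lower and was named after its value was seen. With arrays centred on their medians 3 genes of the list were higher and 7 lower, beside 1118 and 3438 of all 12216 genes. RPS6KB1 lost its call in that fit, with the hybridisation controls, and without MFAP5 replicate 2 or 3 or control replicate 1 or 2. These are mRNA levels, and the activity of the kinases was not measured.

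**Figure D5:**
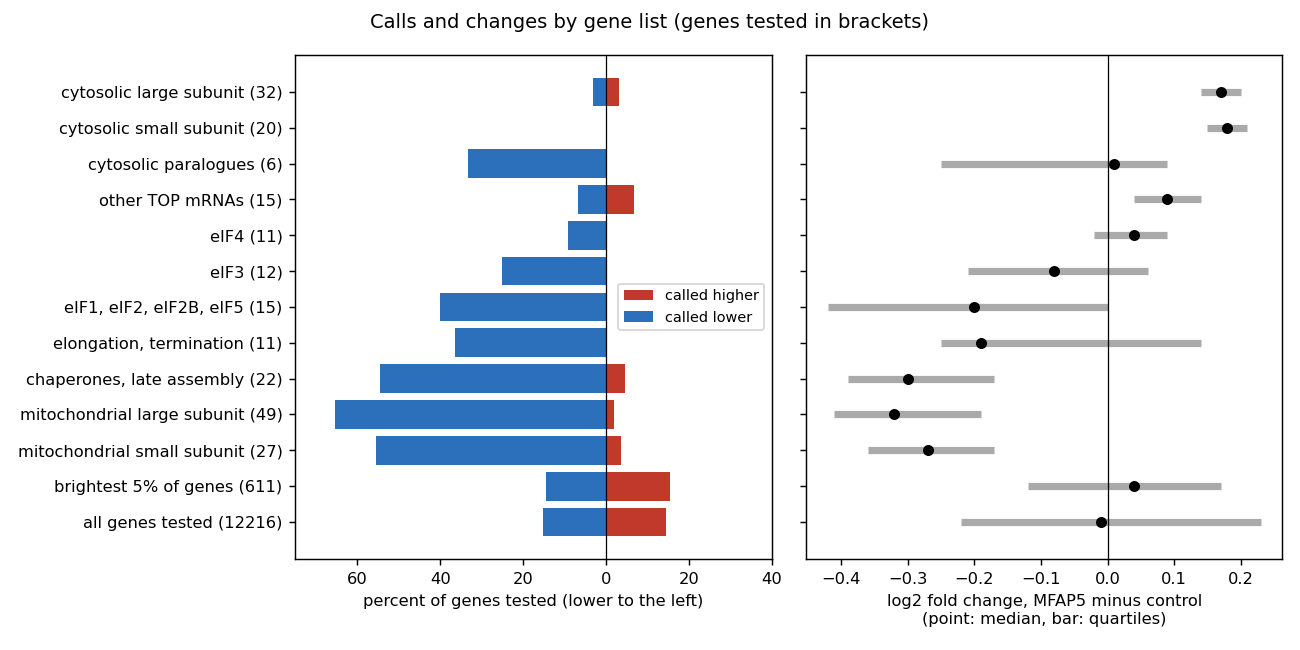
Percent of tested genes called higher (red, to the right) and lower (blue, to the left) for each list, and the median log2 fold change with quartiles (right panel), with the number tested in brackets. Cytosolic subunit proteins have medians of 0.17 and 0.18 with few calls, while the mitochondrial subunits have medians of -0.32 and -0.27 with most genes called lower.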

How the data were processed

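The authors deposited 1 linear intensity per probe set and array, the MAS5 signal, from Affymetrix U133 Plus 2.0 arrays; MAS5 is named per the submitters' processing notes, its version is not given there, and 100 ng of RNA was labelled per array per the labels' protocols. MAS5 scales each array by itself, so a change shared by most transcripts is not visible, and dim signals vary widely on the log scale. Groups and replicate numbers came from the sample titles. Genes were named through the platform annotation (41091 probe sets with 1 symbol, 1801 with several, 11721 with none listed). The 62 control probe sets were left out of the tests.

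From the deposited signals, log2 values were taken with no further scaling. Only the 27307 probe sets with a mean log2 signal at or above the overall median, equal to a signal of 53.7, were kept. The test of MFAP5 against control was two-sided, by limma 3.58.1 under R 4.3.3 with lmFit and then eBayes (trend on intensity; 4 residual and 6.15 prior degrees of freedom), and was tested on simulated data. P-values were adjusted by Benjamini-Hochberg across all kept probe sets, with a threshold of 0.05. Log2 fold changes are MFAP5 minus control. The members and gene lists were chosen with earlier results of these data known. Genes named by rule were those called, RPLP1, RPLP2, the paralogues with their namesakes, the 3 brightest and the 3 whose probe sets differed most, and up to 4 called genes of each other list, with RPS6KB1, LARP1, MTOR and MYC; exceptions are marked, and EEF1A1, EEF2, RPS25 and the subunit genes that complete a count were also named after their values were seen. Same-numbered MFAP5 and control arrays had deviation correlations of 0.09, -0.01 and 0.17 across probe sets, so the numbers were not taken as pairs. Alternatives changed the filter, scaling, variance model, probe set and arrays used. Centring on hybridisation controls, the brightest 5% of genes, the shared probe sets, the tract near the start and the paralogue pairs were chosen after seeing the data. Sequences are RefSeq promoters of GRCh38.p14, matched by symbol.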

Additional observations from a re-analysis of the deposited data

How the results depend on the processing

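The call that RPS27L and RPL26L1 were lower held in 16 of 16 alternatives each, whereas RPL31 lost its call in 11 of 16 and RPL27A in 8 of 15. The number of ribosomal protein genes called higher was 1 as reported and 0 with no filter, with a filter at the 75% quantile, with quantile normalization, with centring on array medians, with centring on hybridisation controls and with no intensity trend. Those fits called 915 to 1683 of all genes higher. With the mean of all probe sets of a gene, 5 of 58 ribosomal protein genes were higher and 4 lower. With the brightest probe set of the _at type, 3 of 28 were higher and 4 lower. No share over all genes is given for these last settings. Leaving out 1 array gave 0 to 5 genes higher (5 without control replicate 3 and 3 without control replicate 2) and 2 to 3 lower. Of all 12216 genes, 1292 to 1754 were higher and 1229 to 1841 lower in those fits. With the subunit proteins alone, 1 was lower. With the replicate block 3 were higher and 3 lower, beside 2063 and 2194 of all 12216 genes, and the replicate numbers do not pair the samples. The median log2 change was 0.02 with quantile normalization and 0.03 with centring on array medians, and between 0.07 and 0.22 with 1 array left out. The number of all probe sets called was 3931 with centring on hybridisation controls. RPS24 turned to -0.24 with its probe sets averaged and to -0.63 with its probe set of the _at type. Over 21 named genes, with at most 16 alternatives each, 284 of 325 values kept their direction and their side of the threshold. Most of these values came from genes that were not called in the main fit. Dim probe sets, with signals near the Bacillus controls (26.4 to 55.9), limit what can be said of RPLP2 and RPL36A. No test for an outlying array was run on single values in groups of 3.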
